A study of Homo sapiens with 24 samples.

Results

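The 9 genes described here belong to the BCL2 family of apoptosis regulators: the pro-survival genes BCL2, BCL2L1 and MCL1, the effector genes BAX and BAK1, and the BH3-only genes BBC3, PMAIP1, BCL2L11 and BID. They were found through the RefSeq accession of each array probe, which gave 14 probes on each of 2 array versions, of 50599 probes measured at 24 h and 58201 at 48 h. RNA came from LNCaP cells, an established prostate cancer line, after transfection with si-A1 (against the long non-coding RNA TAPIR-1), si-A2 (against TAPIR-2) or the scrambled control si-SCRL. Each siRNA had 4 biological replicates at 24 h and 4 at 48 h, each on its own one-colour Agilent array. All groups share the cell line and the transfection, and each target was hit by 1 siRNA sequence here, so an effect of the target and an effect of that sequence cannot be told apart. The times were run on different array versions, so levels at 24 h and 48 h cannot be compared and only differences between siRNAs within a time are set side by side. The si-A2 array of replicate 2 at 48 h was left out, as the study did, because its median intensity was 13.95 against 20.37 to 32.25 on the other 48 h arrays, which leaves 23 arrays and 3 for si-A2 at 48 h.

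BCL2 family proteins decide whether the outer mitochondrial membrane is opened during apoptosis. BAX and BAK1 form the pores through which cytochrome c leaves the mitochondrion, the pro-survival proteins bind and restrain them, and BH3-only proteins either occupy the pro-survival proteins or activate the effectors directly. BAX, BBC3 (PUMA) and PMAIP1 (NOXA) are known transcriptional targets of p53, and much of the control of MCL1, BCL2L11 (BIM) and BID lies in protein turnover, phosphorylation or cleavage, which an RNA array does not measure.

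The probe listed for TAPIR-2 read between 4.81 and 5.28 on the log2 scale in si-SCRL at 24 h, between 4.19 and 4.95 after si-A1, and between 3.12 and 4.7 after si-A2, where 2 of the 4 arrays were not well above background. On this probe the 3 groups overlapped at 48 h, when each of the 11 arrays measured it above background. A second probe, found by the same search at 48 h only, was well above background on 0 arrays in each group. Its means were 2.52 in si-SCRL, 1.75 after si-A1 and 2 after si-A2, which are only bounds. For TAPIR-1, a clone and a gene identifier were searched, but not its transcript identifier, and no probe matched. The si-A1 label was therefore not checked at its target. The search for TAPIR-2 included a clone name that the paper gives, with different suffixes, for both transcripts. Whether a probe found in that way could read TAPIR-1 was not checked. The LNCaP markers KLK3, KLK2, FOLH1, TMPRSS2, HOXB13, KRT8 and KRT18 were well above background on every control array at both times. Of 9 markers of other cell types, 4 were also well above background on every control array at each time (CD3E, PTPRC and VWF at both times, PECAM1 at 24 h, DCN at 48 h), while COL1A1, COL3A1 and TP63 were not. The markers of other cell types gave 0 calls against si-SCRL at either time, and their part in the results was not tested. In such bulk RNA, fewer cells of a kind and less RNA per cell cannot be told apart. Between 58.5% and 71.7% of probes were well above background on a 24 h array and between 60.3% and 66.5% on a 48 h array. The ranges of the 3 siRNA groups overlapped, and no spot was saturated. At 24 h, si-SCRL replicate 3 was the lowest array by this share (58.5%) and by median intensity (24.37, with others up to 57.2). At 48 h, si-SCRL replicate 3 was the highest by both (66.5% and 32.25). Whether this moved any value given below was not tested.

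The sequences before the transcription start of BAX and BBC3 are shown because these are the 2 members with the largest increase in mean signal after si-A2 at 24 h. They are the 250 bases before a RefSeq transcript start on GRCh38.p14, written 5′ to 3′ on the gene's strand. Each E-box (CACGTG, a palindrome bound by MYC and USF factors) is in capitals. For BBC3, the start used lies inside the gene's RefSeq span (47220824 to 47232860), so that window overlaps the gene.
BAX, chr19:48954625-48954874, plus strand: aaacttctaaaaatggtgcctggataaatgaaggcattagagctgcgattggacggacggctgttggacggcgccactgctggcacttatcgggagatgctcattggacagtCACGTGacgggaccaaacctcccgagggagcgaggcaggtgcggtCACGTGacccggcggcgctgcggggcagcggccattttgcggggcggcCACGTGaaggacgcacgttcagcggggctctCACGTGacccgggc
BBC3, chr19:47232668-47232917, minus strand: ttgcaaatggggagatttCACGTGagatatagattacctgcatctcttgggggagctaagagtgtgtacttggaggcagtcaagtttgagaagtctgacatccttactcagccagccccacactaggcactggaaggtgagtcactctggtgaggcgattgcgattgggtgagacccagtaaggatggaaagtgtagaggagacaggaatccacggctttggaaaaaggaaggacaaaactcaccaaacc
The BAX window holds 4 E-boxes, the nearest at 14 to 9 bases before the start, and 5 of 35116 RefSeq windows of this length hold at least 4 (0.0142%). The BBC3 window holds 1 E-box at 232 to 227 bases before the start, and any E-box is found in 6.34% of windows. The table gave windows for 8 of the 9 members, with 13 starts in all. The p53 decamer, searched on both strands, lies in 5.57% of all windows and, among the members, in that of BAK1 alone, at 73 to 64 bases before the start. A spaced pair of p53 decamers lies in 0.0256% of windows and in none of the members'. These matches are letters in a short window and say nothing of binding in these cells.

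Against si-SCRL, and between the knockdowns, no member passed the study's rule, an adjusted p below 0.01 (limma, Benjamini-Hochberg over all genes) with a log2 fold change of at least 0.5. The rule called 0 of 9 members after si-A1 at 24 h, where it called 1.03% of 36639 genes, and 0 of 9 after si-A2, where it called 0.903%. At 48 h it called 0 of 9 after si-A1, with 5.82% of 37678 genes called, and 0 of 9 after si-A2, with 0.443%. Between si-A2 and si-A1 it called 0 of 9 at 24 h (0.308% of all genes) and 0 of 9 at 48 h (1.36%). With few genes called in most of these comparisons, 0 of 9 is near the background share and is not a result about the family.

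Unadjusted p-values below 0.05 were counted beside their share over all genes. After si-A1 at 24 h, 1 of 9 members was past it (BCL2L1, lower) against 12.4% of all genes, and after si-A2 2 of 9 were (BAX and BBC3, both higher) against 11.1%. At 48 h, 3 of 9 were past it after si-A1 (MCL1 and PMAIP1 lower, BBC3 higher) against 28.2% of all genes, and 3 of 9 after si-A2 (BAX and BBC3 higher, PMAIP1 lower) against 17.3%. Between si-A2 and si-A1, 4 of 9 were past it at 24 h (BCL2L1, BAX and BBC3 higher after si-A2, BID lower) against 10.7%, and 1 of 9 at 48 h (BCL2L1, higher after si-A2) against 18.2%. The median absolute log2 difference of the 9 members from si-SCRL at 24 h was 0.184 with si-A1 and 0.249 with si-A2, beside 0.223 and 0.205 over all genes. At 48 h it was 0.181 and 0.0938, beside 0.235 and 0.198. The 95% interval of the difference from si-SCRL lay within 1 log2 unit on either side of 0 for 8 of the 9 members after si-A1 at 24 h, and for all 9 in each of the other comparisons with si-SCRL. It lay within 0.5 for 5 members after si-A1 and 3 after si-A2 at 24 h, and for 8 and 5 at 48 h. Below, groups of arrays are also said to overlap or not. The share of all genes whose groups do not overlap was not counted. A gap between groups is therefore a description of the arrays and not a result about a member.

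**Figure D1:**
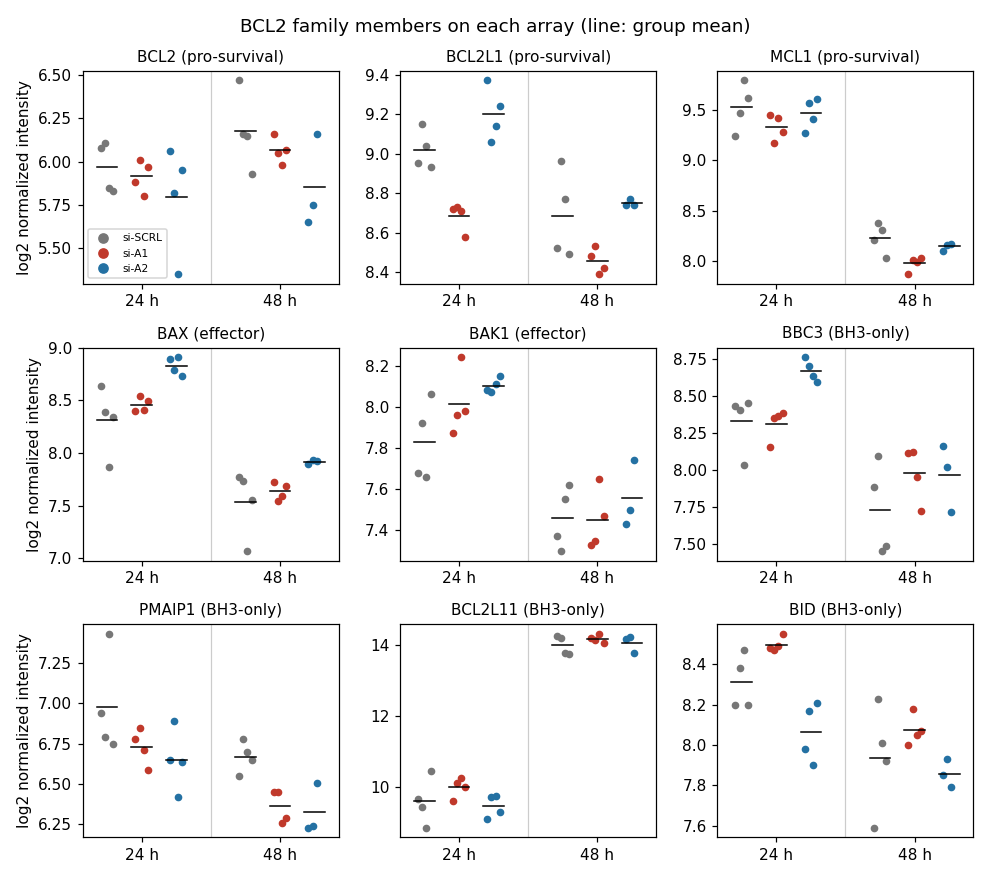
Log2 signal (quantile-normalized processed intensity) of the 9 members on each array, by siRNA and time, with 1 point per array and a bar at the group mean. In BAX and BBC3 the 4 si-A2 points lie above those of si-SCRL at 24 h, and in BCL2L1 the si-A1 points lie lowest at 24 h. The groups of BCL2 and BCL2L11 overlap at both times. The panels of BAK1 (24 h), MCL1 and PMAIP1 (48 h) and BID (both times) hold groups that do not overlap, some by a small margin. The share of all genes with such gaps was not counted.

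BCL2L1, which encodes BCL-XL, was lower in every si-A1 array than in every si-A2 array at both times. It lies on chromosome 20 (31664452 to 31723963) and was read by 1 probe, printed as 10 spots on the 24 h array, whose values on 1 array had a median SD of 0.063. At 24 h its log2 signal was 8.95, 9.15, 9.04 and 8.93 in si-SCRL replicates 1 to 4, 8.72, 8.73, 8.71 and 8.58 after si-A1, and 9.37, 9.06, 9.14 and 9.24 after si-A2. All si-A1 arrays were below all others, while si-A2 and si-SCRL overlapped. The difference of si-A1 from si-SCRL was -0.33 (95% interval -0.6 to -0.07, adjusted p = 0.267 by limma), and that of si-A2 was 0.18 (-0.08 to 0.45, adjusted p = 0.635).

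Between the knockdowns, BCL2L1 was 0.52 higher on the log2 scale after si-A2 than after si-A1 at 24 h (95% interval 0.25 to 0.78, limma adjusted p = 0.0773). In the fit with 1 probe per gene, this was the smallest adjusted p of any member in the 6 comparisons within a time. A second BAX probe, tested as its own feature and described below, gave smaller ones. Within the slides the difference was 0.49 on slide 1 and 0.55 on slide 2. At 48 h, where the probe has 1 spot, BCL2L1 read 8.52, 8.96, 8.77 and 8.49 in si-SCRL, 8.48, 8.53, 8.39 and 8.42 after si-A1 and 8.74, 8.77 and 8.74 after si-A2. Here too every si-A2 array was above every si-A1 array, by 0.31 on average (0.03 to 0.59, limma adjusted p = 0.22), and si-SCRL overlapped with both. Across the 25 alternatives the 24 h difference between the knockdowns stayed between 0.45 and 0.58, with adjusted p from 0.00488 to 0.221. The smallest of these came with normexp background correction, where the difference was 0.45 and so under the fold threshold.

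MCL1 (chromosome 1, 150574558 to 150579610) encodes a short-lived pro-survival protein. At 24 h its log2 signal was 9.24, 9.47, 9.79 and 9.62 in si-SCRL, 9.45, 9.17, 9.42 and 9.28 after si-A1, and 9.27, 9.57, 9.41 and 9.61 after si-A2, with all groups overlapping. At 48 h it was 8.21, 8.38, 8.31 and 8.03 in si-SCRL, 7.87, 8.01, 7.99 and 8.03 after si-A1, and 8.1, 8.16 and 8.17 after si-A2. The si-A1 arrays were the lowest at 48 h, although the highest of them met the lowest si-SCRL array to the second decimal, and every si-A2 array was above every si-A1 array, by 0.17 on average (-0.07 to 0.41, limma adjusted p = 0.465). The 48 h difference of si-A1 from si-SCRL was -0.26 (-0.48 to -0.04, limma adjusted p = 0.112), and it was -0.36 on slide 1 and -0.16 on slide 2.

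BCL2 itself, the founding pro-survival gene (chromosome 18, 63123346 to 63320090), was read by 2 probes, of which one never rose well above background and gives only a bound. The other read 6.08, 6.11, 5.85 and 5.83 in si-SCRL at 24 h, 5.88, 6.01, 5.8 and 5.97 after si-A1, and 6.06, 5.82, 5.35 and 5.95 after si-A2. At 48 h it read 6.47, 6.16, 6.15 and 5.93 in si-SCRL, 6.16, 6.05, 5.98 and 6.07 after si-A1, and 5.65, 5.75 and 6.16 after si-A2. The groups overlapped at both times. The widest difference was that of si-A2 at 48 h, -0.32 (-0.68 to 0.04, limma adjusted p = 0.346), which was -0.67 on slide 1 with 1 si-A2 array and -0.09 on slide 2 with 2.

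**Figure D2:**
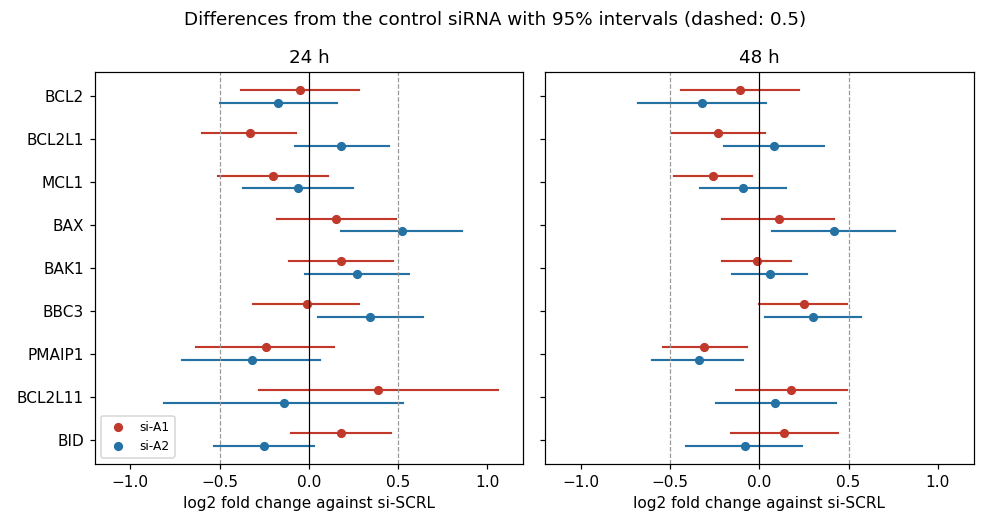
Log2 difference of each member from si-SCRL after si-A1 and after si-A2, at 24 h and at 48 h, with its 95% interval from limma. The intervals for BAX and BBC3 after si-A2 lie above 0 at both times, those for PMAIP1 lie below 0 at 48 h, and no member passes the adjusted threshold.

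BAX, the cytosolic effector that inserts into the mitochondrial membrane when activated, gave the widest difference from si-SCRL of any member. It lies on chromosome 19 (48954875 to 48961798) and was read by 2 probes that are annotated to different RefSeq transcripts, a single-spot probe, which was the brighter and entered the fit over genes, and a probe printed as 10 spots at both times. The single-spot probe read 8.64, 8.39, 7.87 and 8.34 in si-SCRL at 24 h, 8.4, 8.54, 8.41 and 8.49 after si-A1, and 8.89, 8.79, 8.91 and 8.73 after si-A2. All 4 si-A2 arrays were above all others, and si-A1 overlapped with si-SCRL, whose replicate 3 was the lowest. The si-A2 difference was 0.52 (0.18 to 0.86, limma adjusted p = 0.167), and the si-A1 difference was 0.15 (-0.18 to 0.49, adjusted p = 0.697).

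The 10-spot BAX probe read 7.12, 6.85, 7.06 and 6.9 in si-SCRL at 24 h, 7.15, 6.94, 7.1 and 7 after si-A1, and 7.64, 7.53, 7.77 and 7.64 after si-A2. Its si-A2 arrays were again all above the others, and si-SCRL replicate 3 did not stand apart on it. With every probe as its own feature, the si-A2 difference was 0.66 (0.4 to 0.93, limma adjusted p = 0.0187), past an adjusted 0.05 but not the 0.01 of the rule, and si-A2 was 0.6 above si-A1 (0.33 to 0.86, adjusted p = 0.0416). The 10 spots on 1 array had a median SD of 0.0843, and the 4 arrays of a siRNA had an SD of 0.13 in si-SCRL, 0.09 after si-A1 and 0.1 after si-A2. When each array in turn was left out, the si-A2 difference of this probe stayed between 0.62 and 0.72, with adjusted p from 0.021 to 0.0763.

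At 48 h the BAX probes gave different orders of the groups. The single-spot probe read 7.77, 7.73, 7.07 and 7.55 in si-SCRL, 7.72, 7.54, 7.59 and 7.69 after si-A1, and 7.9, 7.93 and 7.92 after si-A2. The 10-spot probe read 7.36, 7.51, 6.33 and 6.78 in si-SCRL, 7.95, 7.85, 7.51 and 7.38 after si-A1, and 7.93, 7.34 and 7.51 after si-A2. On the former, the si-A2 arrays lay above all others and si-A1 overlapped with si-SCRL, while on the latter, both knockdowns overlapped with si-SCRL and with each other over all arrays, but every knockdown array was above every si-SCRL array of its own slide.

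On the single-spot probe the 48 h difference of BAX was 0.42 after si-A2 (0.07 to 0.76, limma adjusted p = 0.211) and 0.11 after si-A1 (-0.21 to 0.42, adjusted p = 0.686). On the 10-spot probe it was 0.7 after si-A2 (0.37 to 1.03, limma adjusted p = 0.0427) and 0.67 after si-A1 (0.37 to 0.98, adjusted p = 0.0109), neither of them called. The si-SCRL array of replicate 3 was the lowest on both probes, and leaving it out gave, for si-A2 and si-A1 in turn, 0.25 and -0.04 on the single-spot probe and 0.55 and 0.54 on the 10-spot probe. Within the slides, the si-A2 difference on the single-spot probe was 0.32 and 0.72 at 24 h and 0.15 and 0.62 at 48 h, the second of each pair being the slide with that array. On the 10-spot probe at 48 h it was 0.49 and 0.87, and the si-A1 difference was 0.46 and 0.89. With the replicate number as a block, the 48 h values of the 10-spot probe were 0.71 after si-A2 (limma adjusted p = 0.0827) and 0.67 after si-A1 (adjusted p = 0.0246).

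**Figure D3:**
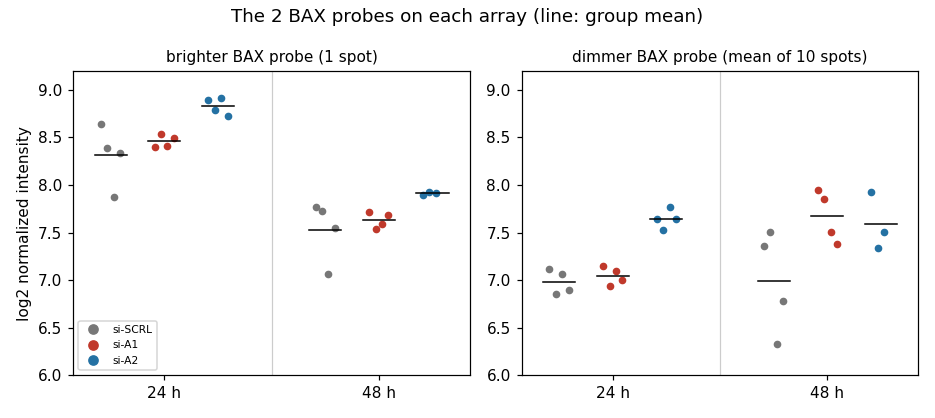
Log2 signal of the single-spot and the 10-spot BAX probe on each array, by siRNA and time, with 1 point per array and a bar at the group mean. The si-A2 arrays lie above si-SCRL on both probes at 24 h, and at 48 h they do so on the single-spot probe, while on the 10-spot probe both knockdowns overlap with si-SCRL, whose replicate 3 is the lowest array on both.

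BAK1, the effector resident in the mitochondrial membrane (chromosome 6, 33572552 to 33580276), read 7.68, 7.92, 7.66 and 8.06 in si-SCRL at 24 h, 7.87, 7.96, 8.24 and 7.98 after si-A1, and 8.08, 8.07, 8.11 and 8.15 after si-A2. The si-A2 arrays were all above si-SCRL, the nearest by 0.01. The difference was 0.27 after si-A2 (-0.02 to 0.56, limma adjusted p = 0.503) and 0.18 after si-A1 (adjusted p = 0.591). At 48 h BAK1 lay between 7.3 and 7.74 on all 11 arrays, with overlapping groups, and its differences from si-SCRL were -0.01 (-0.21 to 0.18) after si-A1 and 0.06 (-0.15 to 0.27) after si-A2.

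Among the BH3-only genes, BBC3 (chromosome 19, 47220824 to 47232860), whose product PUMA binds all pro-survival proteins, was in the direction of BAX after si-A2. At 24 h it read 8.43, 8.4, 8.03 and 8.45 in si-SCRL, 8.15, 8.35, 8.36 and 8.38 after si-A1, and 8.76, 8.7, 8.63 and 8.59 after si-A2. All si-A2 arrays were above all others, and si-A1 overlapped with si-SCRL. The si-A2 difference from si-SCRL was 0.34 (0.05 to 0.64, limma adjusted p = 0.338), and that from si-A1 was 0.36 (0.06 to 0.65, adjusted p = 0.327). Without si-SCRL replicate 3, again the lowest control array, the former was 0.25.

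At 48 h BBC3 read 7.88, 8.09, 7.45 and 7.48 in si-SCRL, 8.11, 8.12, 7.95 and 7.72 after si-A1, and 8.16, 8.02 and 7.71 after si-A2. In every group the arrays of replicates 3 and 4, which lay on slide 2, were below those of slide 1, and the groups overlapped. With the slide as a term the difference from si-SCRL was 0.25 after si-A1 (0 to 0.49, limma adjusted p = 0.173) and 0.3 after si-A2 (0.03 to 0.57, adjusted p = 0.238). Within the slides the si-A1 difference was 0.13 and 0.37 and the si-A2 difference 0.18 and 0.4.

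PMAIP1 (chromosome 18, 59899996 to 59904305), whose product NOXA binds MCL1, had lower means after both siRNAs. At 24 h it read 6.94, 6.79, 7.43 and 6.75 in si-SCRL, 6.78, 6.85, 6.71 and 6.59 after si-A1, and 6.65, 6.89, 6.42 and 6.64 after si-A2, with si-SCRL replicate 3 the highest and the groups overlapping. At 48 h it read 6.55, 6.78, 6.7 and 6.65 in si-SCRL, 6.45, 6.45, 6.26 and 6.29 after si-A1, and 6.23, 6.24 and 6.51 after si-A2. Every knockdown array was below every si-SCRL array at 48 h. The 48 h differences were -0.31 after si-A1 (-0.54 to -0.07, limma adjusted p = 0.0798) and -0.34 after si-A2 (-0.6 to -0.09, adjusted p = 0.164), and on slides 1 and 2 they were -0.21 and -0.4 after si-A1 and -0.44 and -0.31 after si-A2. After si-A2 at both times, PMAIP1 thus had a mean below si-SCRL, where BAX and BBC3 had means above it. These are the 3 members named above as p53 targets, and none was called. After si-A1, the BBC3 difference at 24 h was -0.01 (-0.31 to 0.28), and that of BAX at 48 h was 0.11 (-0.21 to 0.42).

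BID (chromosome 22, 17734138 to 17774665), which is cleaved by caspase-8 and links death receptors to the mitochondrion, differed mostly between the knockdowns. Its brighter probe read 8.2, 8.38, 8.47 and 8.2 in si-SCRL at 24 h, 8.48, 8.47, 8.49 and 8.55 after si-A1, and 7.98, 8.17, 7.9 and 8.21 after si-A2. All si-A2 arrays were below all si-A1 arrays, with a mean difference of -0.43 (-0.71 to -0.15, limma adjusted p = 0.172), with si-SCRL between them and overlapping with both. The second BID probe, of the same transcript, gave a difference of si-A2 from si-A1 of -0.31 in the fit of every probe (limma adjusted p = 0.327), also without overlap. At 48 h the brighter probe read 8, 8.18, 8.05 and 8.07 after si-A1 and 7.85, 7.93 and 7.79 after si-A2, within the range of si-SCRL (7.59, 8.23, 8.01 and 7.92), and the difference between the knockdowns was -0.22 (-0.55 to 0.11, limma adjusted p = 0.491).

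BCL2L11 (chromosome 2, 111120914 to 111168445), which encodes BIM, had the widest intervals of any member at 24 h. Its brightest probe read 9.66, 9.43, 8.84 and 10.43 in si-SCRL at 24 h, 9.59, 10.09, 10.25 and 10 after si-A1, and 9.09, 9.7, 9.74 and 9.27 after si-A2. The control arrays spanned all of the si-A1 and si-A2 arrays, and the differences were 0.39 (-0.28 to 1.06, limma adjusted p = 0.612) and -0.14 (-0.81 to 0.53, adjusted p = 0.898). At 48 h it read 14.26, 14.18, 13.77 and 13.73 in si-SCRL, 14.19, 14.14, 14.3 and 14.04 after si-A1, and 14.15, 14.21 and 13.76 after si-A2, again overlapping.

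With the arrays normalized within each time, that BCL2L11 probe was 4.39 log2 units higher in si-SCRL on the 48 h array than on the 24 h array, in the 99.9th percentile of such shifts over 35826 shared probes, while the other 12 shared member probes shifted by -1.29 to 1.41. Time and array version are the same split, so the source of this shift cannot be told apart, and the probe's level is not read as that of BIM mRNA. A second probe to the same transcript was set aside as an outlier spot on 3 of the 4 si-A1 arrays at 48 h and gave differences of 0.36 after si-A1 and 0.08 after si-A2 at 24 h. The third, to another transcript, was well above background on 1 of 12 arrays at 24 h and 1 of 11 at 48 h.

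An interaction test over 30111 genes asked whether the effect of each siRNA differed between the times. The rule called 0 of 9 members for si-A1 (0.179% of all genes called) and 0 of 9 for si-A2 (0.0465%), and none of the members was past an unadjusted 0.05 in either test (12.7% and 7.3% of all genes). The smallest adjusted p was that of BBC3 for si-A1, whose effect was 0.29 higher at 48 h than at 24 h (-0.04 to 0.62, limma adjusted p = 0.468). For BAX after si-A2 the change was -0.06 (-0.5 to 0.38, limma adjusted p = 0.969), and for PMAIP1 after si-A2 it was 0.01 (-0.43 to 0.45, adjusted p = 0.997).

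The rest of the apoptosis machinery gives the frame for these values, through lists written with earlier results known. Of 12 other BCL2 family genes, among them BCL2L2, BOK, BAD and BMF, 0 were called against si-SCRL in any comparison (12 measured at 24 h, 11 at 48 h). The lowest adjusted p among them after si-A1 at 48 h was that of BCL2A1, a pro-survival gene (0.58, limma adjusted p = 0.0189), and after si-A2 at 24 h that of HRK, a BH3-only gene (-0.78, adjusted p = 0.0444). The mitophagy receptors BNIP3 and BNIP3L, and the 5 genes of MCL1 protein turnover, also gave 0 calls. Of 14 genes of the mitochondrial apoptosis pathway, 2 fell after si-A1 at 48 h and 0 were called otherwise against si-SCRL. These were CYCS, which encodes cytochrome c (-1.17, SE 0.08, limma adjusted p = 5.78e-05), and VDAC3, an outer membrane channel (-0.53, SE 0.09, adjusted p = 0.0047). In that comparison 5.82% of all genes were called. CYCS stayed called without each array in turn and with the replicate block, while VDAC3 was not called with the block (adjusted p = 0.0121) and stayed called in 4 of the 11 fits that left out 1 array.

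Among the inhibitors of apoptosis, BIRC5, which encodes survivin and is also a mitotic gene, fell after si-A1 (-2.07 at 24 h and -3.72 at 48 h, limma adjusted p = 1.72e-05 and 8.95e-05) and after si-A2 at 24 h (-1.89, adjusted p = 1.66e-05), and its 48 h value after si-A2 was -1.91 (adjusted p = 0.0182, not called). Its 3 calls stayed without each array in turn, and the 48 h call with the replicate block. Of 13 measured genes of the death receptor pathway, which include adaptors and caspases, FAS rose after si-A1 (0.88, limma adjusted p = 0.00713) and si-A2 (1.31, adjusted p = 0.000511) at 24 h. After si-A1 at 48 h, 4 rose: FAS (0.82), TNFRSF10A (0.71), TNFRSF10D (1.06) and TNFRSF21 (0.9). Of these, FAS after si-A2 at 24 h and TNFRSF10A stayed called without each array in turn. FAS after si-A1 was called in 0 of 12 such fits at 24 h and 3 of 11 at 48 h, TNFRSF10D in 3 of 11 and TNFRSF21 in 4 of 11, and with the replicate block at 48 h FAS (limma adjusted p = 0.0184) and TNFRSF10D (adjusted p = 0.0177) were not called. No gene of this pathway list was called after si-A2 at 48 h, where 4 of 13 were higher at an unadjusted p below 0.05 (17.3% of all genes in either direction).

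Of 11 other p53-responsive genes with a role in cell death, 1 rose after si-A1 at 24 h (TP53INP1, 0.76, limma adjusted p = 0.00509). After si-A2 at 24 h, 3 rose (ZMAT3 1.37, TP53I3 1.18, TP53INP1 1.07) and SIVA1, whose product binds a receptor of the TNF receptor family, fell by 1.19. At 48 h after si-A1, ZMAT3 (2.36) and TP53I3 (0.98) rose, and SIVA1 (-1.24) and TRIAP1 (-0.61) fell. After si-A2 only SIVA1 was called at 48 h (-1.32, limma adjusted p = 0.00348). With the replicate number as a block it was not called (-1.35, limma adjusted p = 0.0133). It stayed called in 4 of the 11 fits that left out 1 array. The block also ended the call of TRIAP1 at 48 h (limma adjusted p = 0.0124). Without each array in turn, TP53INP1 after si-A1 stayed called in 1 of 12 fits, ZMAT3 after si-A2 in 8 of 12, TP53I3 and TRIAP1 after si-A1 at 48 h in 4 of 11 each, and the other calls of this list in all. The median difference of this list after si-A2 at 24 h was 0.45, beside 0.0496 over all genes. In the other comparisons with si-SCRL it was -0.05 after si-A1 at 24 h, and 0.14 after si-A1 and -0.03 after si-A2 at 48 h. Over all genes these medians were 0.0542, 0.0554 and 0.012. CDKN1A, the p53 target that encodes p21, was 0.68 higher after si-A1 (adjusted p = 0.0465, not called) and rose by 1.79 after si-A2 (adjusted p = 0.000102) at 24 h, and at 48 h it rose by 2.1 after si-A1 (adjusted p = 0.000151), with 1.21 after si-A2 (adjusted p = 0.0182). The median over the 2 effectors after si-A2 at 24 h was 0.4, over the 3 pro-survival members -0.06 and over the 4 BH3-only members -0.2.

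**Figure D4:**
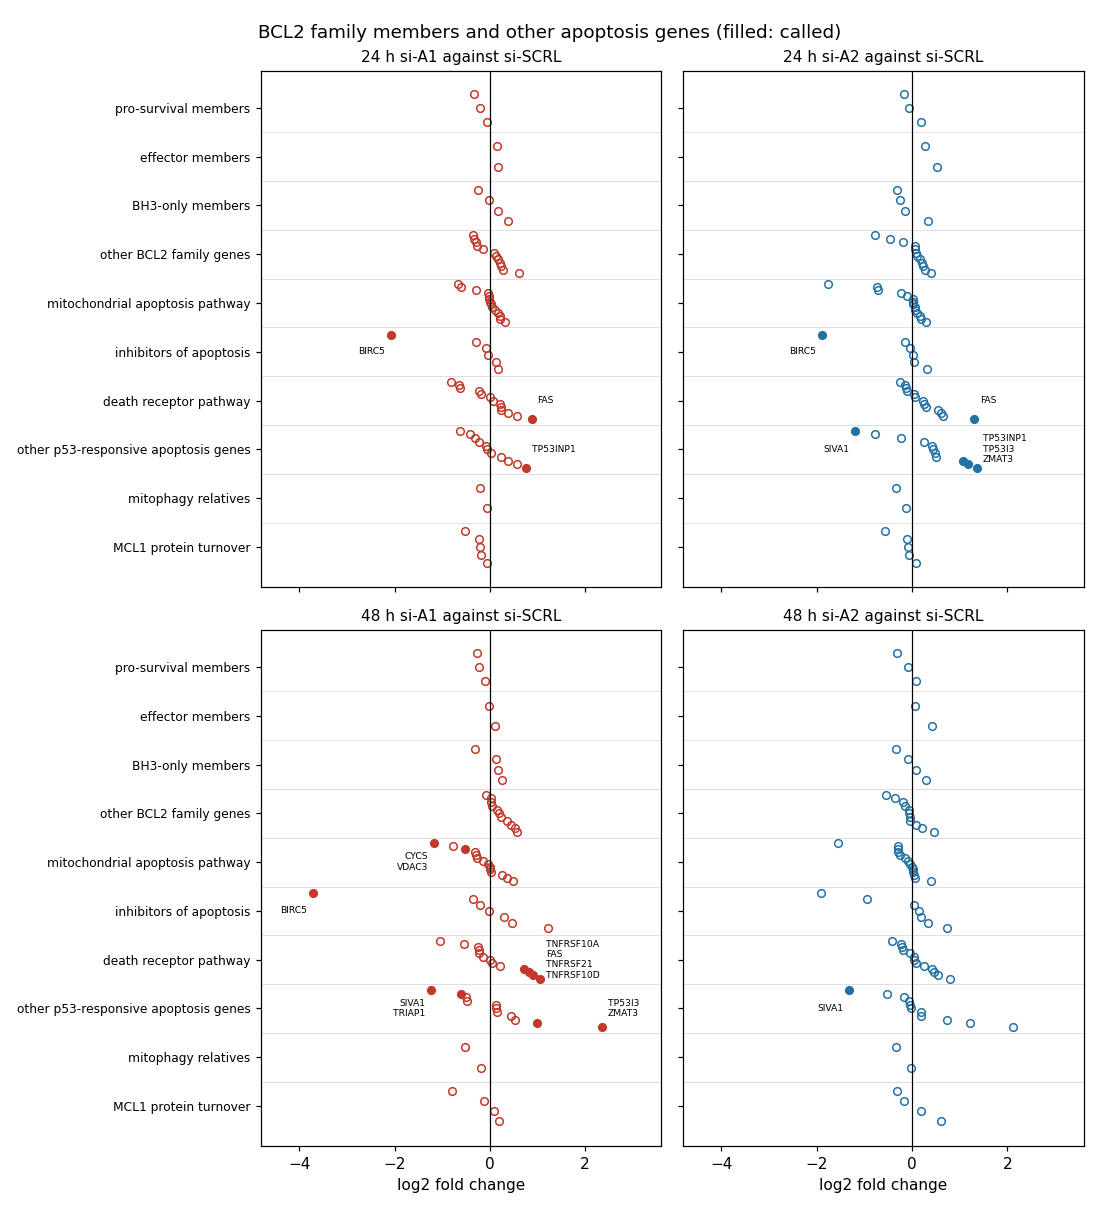
Log2 difference from si-SCRL of every measured gene of the BCL2 family and of the other apoptosis lists, after si-A1 (red) and si-A2 (blue) at 24 h (top) and 48 h (bottom), with genes called by the rule filled and named. The points of the 9 members and the other BCL2 family genes are all open, with HRK at -0.78 after si-A2 at 24 h the farthest from 0 among them, and the filled points lie among the inhibitors of apoptosis, the death receptor pathway, the other p53-responsive genes and, after si-A1 at 48 h, 2 genes of the mitochondrial pathway.

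The genes whose signal most resembled that of the single-spot BAX probe over the 12 arrays of 24 h were RAB40C, PLA2G4F, CES2, GTPBP6 and MRPS12, with Pearson correlations of 0.929 to 0.948, picked from the genes named through RefSeq. Over the 11 arrays of 48 h their correlations with BAX were between -0.268 and 0.342. The arrays share slides and the 3 siRNAs, and these values are descriptions.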

How the data were processed

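The authors deposited the Agilent Feature Extraction output of each array (version 11.5.1.1, as read from the header of a single 24 h array). As deposited by the authors, its processed signal is a linear intensity from which background has been subtracted, and it is not normalized between arrays. They also deposited quantile-normalized log2 values per time, used here as an alternative. The submitters' notes name hg38, R 3.4.3 and limma 3.34.8.

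Here, quantile normalization was applied within a time to the log2 processed intensity, flagged outlier spots were set aside and spots of a probe were averaged. A probe was kept if at least 3 arrays showed it above the negative controls (308 spots, mean and 3 SDs). The brightest such probe stood for its gene, which gave 36639 genes at 24 h and 37704 at 48 h, of which 37678 had at least 2 values per group. Where a probe is not well above background in a group, its value there is only a bound, and the number of arrays limits the precision. RefSeq accessions (GRCh38.p14) named 57.4% and 53.4% of probes, and other probes kept the array's name. Limma 3.58.1 (R 4.3.3, statmod 1.5.0, data.table, version 1.17.8) was fitted with all 3 siRNAs and the slide as an additive term, and p-values were adjusted over all genes by the Benjamini-Hochberg method. The interaction used probes shared by both array versions, with 23 arrays normalized together. Each time used 2 slides, each with all siRNAs. The scripts were tested on simulated data.

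At 48 h, samples of the same replicate number deviated together (correlations of residuals 0.189 to 0.372 in 10 of 10 pairs). Different numbers on the same slide gave 0.105 to 0.306, and samples on different slides gave -0.348 to -0.124. The slide was not removed from these residuals, so pairing by number and sharing a slide cannot be told apart. The replicate block treats the numbers as possible pairs.

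The members and lists were chosen with earlier results of these data known. Named were the 9 members at all their probes, list genes called against si-SCRL (at most 8 per list), CDKN1A, the probes found for TAPIR-2 and the 5 genes most correlated at 24 h with the member of the largest difference. Other list genes named without a call (BCL2A1, HRK and the examples of each list) were chosen after their values were seen. Alternatives were other scaling, background correction, blocks, filters, probe rules, array weights and fold thresholds, and each array left out. Leaving arrays out and the replicate block for the 10-spot BAX probe and for called list genes were added after seeing the data. Some marker results are not reported here.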

Additional observations from a re-analysis of the deposited data

Results flagged for a closer look

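Of 67 groups of 4 arrays tested over the member probes, 5 held an array that stood apart from the other 3 by Dixon's criterion, where chance gives about 5%. At 24 h these were BCL2L1 in si-A1 replicate 4, the lowest of its group at 8.58, BBC3 in si-A1 replicate 1 (8.15) and BBC3 in si-SCRL replicate 3 (8.03), both also the lowest. The remaining pair came from the BCL2L11 probe that is near background on nearly all arrays, in si-A2 replicate 4 at 24 h (2.68) and in si-SCRL replicate 1 at 48 h (2.72). Without si-SCRL replicate 3, the 24 h difference of BBC3 after si-A2 was 0.25 in place of 0.34. The causes were not tested.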

How the results depend on the processing

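No member was called in any of the 227 alternative counts, so the count of 0 held in each comparison under each setting that gave a value. Of 2075 values of single members, 2057 kept their direction or changed sign within the residual spread, and 18 reversed. With the dim si-A2 array of 48 h included, the 48 h si-A2 values were 0.22 for BCL2, -0.27 for BCL2L1 and -1.02 for BCL2L11, those against si-A1 were 0.33 for BCL2, -0.03 for BCL2L1, -1.53 for MCL1 and 0.2 for PMAIP1, and the changes of the si-A2 effect were 0.8 for BAK1, 0.37 for BBC3, 0.43 for BCL2, -0.78 for BCL2L11 and -0.72 for BID. With the median over a gene's probes, the change of the si-A1 effect was 0.32 for BAX, and BCL2L11, whose other probes then enter, gave -1.39 for si-A1, -0.14 for si-A2 and 1.25 for si-A2 against si-A1 at 48 h and -0.19 for the change of the si-A2 effect. With the interquartile range filter that last change was -0.2. The filter left only 2 members with a value at 24 h (BAX by its 10-spot probe, 0.66 after si-A2, and BCL2L11) and none at 48 h. For BAX after si-A2 at 24 h the 26 alternatives gave 0.39 to 0.66, with limma adjusted p from 0.0347 (median over probes) to 0.387.

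At 24 h, residuals of samples with the same replicate number correlated from -0.152 to 0.151. These values cannot settle whether the numbers were pairs, since the slide was not removed from them. A replicate block left 0 members called in all 8 comparisons and gave a BAX difference of 0.52 after si-A2 at 24 h. Over all genes the block gave 251 calls after si-A1 and 30 between the knockdowns at 24 h, 1424 after si-A1, 0 after si-A2 and 208 between the knockdowns at 48 h, and 34 for the change of the si-A1 effect. It changed no other count by over 1.5 times. At 24 h it ended the calls of FAS (limma adjusted p = 0.0222) and TP53INP1 (0.0224) after si-A1 and of ZMAT3 (0.014) after si-A2.

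Counts over all genes, against which the members were read, moved between settings, while a count of 0 among 9 members had little room to move. Against 378 after si-A1 at 24 h there were 136 with only the groups compared, 216 with the interquartile filter and 570 with array weights, and against 331 after si-A2 there were 152 and 215 under the first pair. Between the knockdowns at 24 h (113) there were 23, 17 and 370 under these settings, 312 with normexp and 220 with the filter on probes well above background. At 48 h after si-A1 (2194) there were 1131 without the slide term, 859 at a log2 fold change of at least 1 and 23 with the dim array included. After si-A2 (167) there were 486 with normexp, 291 with the filter on probes well above background, 93 without the slide term, 41 with the interquartile filter and 0 with only the groups compared or with the dim array. Between the knockdowns at 48 h (511) there were 240 without the slide term, 295 at the higher fold, 283 with the interquartile filter and 0 under the last pair. The count for the change of the si-A1 effect (54) ranged from 0 with the dim array to 229 with array weights. It was 146 under normexp, 26 without the slide term and 12 with the interquartile filter. For the change of the si-A2 effect (14) there were 0 with the dim array and 16 with the replicate block. There were 7 to 9 under 75th percentile scaling, no slide term, the interquartile filter and normalization within each time. Leaving out 1 array gave 198 to 321, 211 to 326 and 27 to 253 at 24 h, 1094 to 2286, 1 to 72 and 20 to 443 at 48 h, and 8 to 77 and 3 to 27 for the changes, in the order si-A1, si-A2 and between the knockdowns.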
